A study of Callithrix jacchus with 4 samples.

Results

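The genes of glycolysis and of the response to low oxygen were followed in the substantia nigra pars compacta of common marmosets after MPTP. The list named 35 genes by symbol: enzymes from hexokinase to pyruvate kinase, lactate dehydrogenases, glucose and lactate carriers, kinases that steer glucose use, regulators and targets of the hypoxia response, and brain creatine kinase. Of these, 32 were measured, among 18014 genes in all. The other 3, the lactate carriers SLC16A1 and SLC16A3 and the carbonic anhydrase CA9, were not analysed here. The 32 genes were read by 60 array features (spots that carry 1 gene symbol), 13 genes by 1 feature and 19 by 2 or more.

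The study used 5 male marmosets aged 3 years. Each of 4 received 1 intravenous dose of MPTP at 2.5 mg/kg, under pentobarbital anaesthesia, and they were killed 2 h, 6 h, 1 day and 14 days later, 1 animal at each time. The remaining animal received vehicle and was the control on all 4 arrays. MPTP is a neurotoxin. Its metabolite accumulates in dopamine neurons and inhibits the first complex of mitochondrial respiration. At this dose animals are immobile through the first day, per the series' text. A strip of the nucleus on 1 side of the midbrain was cut out by laser, so each sample held the neurons, glia and vessels of that strip. The RNA, amplified in 2 rounds, was hybridised to a 2-colour array of human probes, with the MPTP animal in Cy5 and the vehicle animal in Cy3. No dyes were swapped per the labels.

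Glycolysis splits glucose into pyruvate in the cytosol and yields ATP without oxygen. Lactate dehydrogenase then turns pyruvate into lactate, or pyruvate enters the mitochondria, where the respiratory chain uses it with oxygen. When oxygen is short, prolyl hydroxylases (EGLN proteins) no longer mark the transcription factors HIF1A and EPAS1 for breakdown, and these switch on glycolytic enzymes, glucose carriers and factors such as VEGFA. HIF1A is controlled mainly at the protein level, so its transcript is not a measure of its activity.

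All values are log2 ratios of RNA, MPTP over vehicle, and 1 on this scale is 2-fold. A gene with several features is given by their median, with the SD over features where one is printed. The table states neither scale nor direction. Both were inferred, the scale from the range of the values and the direction from the labelled dyes, and a ratio of vehicle over MPTP would turn each sign given here. With 1 animal per time and 1 vehicle animal there was no replicate, so no difference was tested, the number of arrays limits the precision, and the same vehicle sample enters every ratio. In such tissue, fewer cells of a type and less RNA per cell cannot be told apart. A ratio carries no level, so the tissue label could not be checked by the abundance of its markers. The 12 dopamine neuron markers had medians of 0.26, 0.22, 0.21 and 0.13 from 2 h to 14 days, and the dopamine transporter SLC6A3 was listed at exactly 0 on all 4 arrays.

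At 2 h after MPTP, 5 of the 32 genes were at least 2-fold higher than in the vehicle animal and none was 2-fold lower. The 5 were the glycolytic enzymes GAPDH, ALDOA, ENO3 and PGAM2 and the creatine kinase CKB. This is 15.6% of the genes, beside 5.47% of all genes at least 2-fold higher on that array and 7.22% at least 2-fold lower. At 6 h, 3 genes were at least 2-fold higher, namely CKB, ALDOA and the prolyl hydroxylase EGLN3 (9.38%, beside 3.37% of all genes), and none was lower (3.89% of all genes). At 1 day no gene of the list passed 2-fold in either direction, beside 2.27% of all genes higher and 1.67% lower. At 14 days HK1 alone passed, on the higher side, beside 2.16% of all genes higher and 2.12% lower. With the arrays scaled to 1 spread, the 2 h count was 3, since ENO3 (0.91) and PGAM2 (0.85) then lay under 2-fold.

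**Figure D1:**
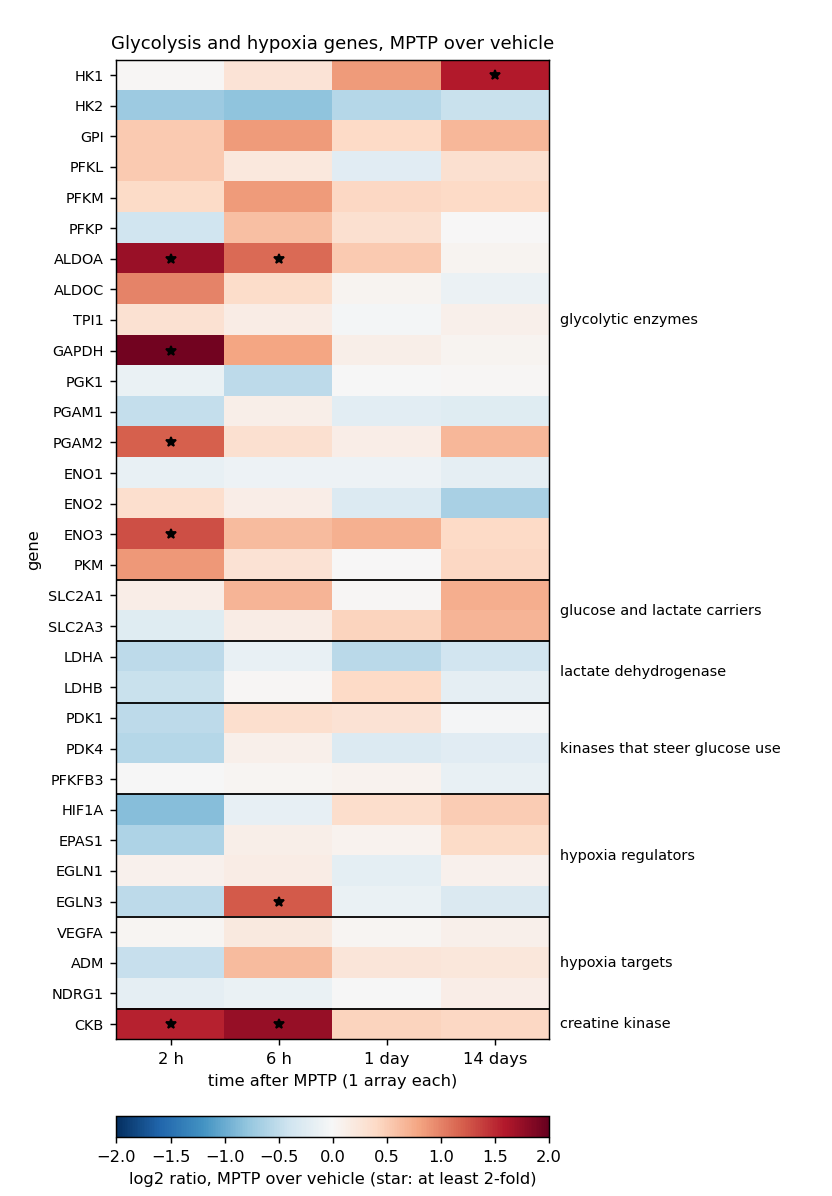
Colours give the log2 ratio of MPTP over vehicle for the 32 genes (rows, grouped by role) on the 4 arrays (columns, 1 animal each), and stars mark values at least 2-fold from vehicle. The stars lie at 2 h and 6 h, except that of HK1 at 14 days, and all are on the higher side.

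Of the enzymes of the early steps, which prepare the sugar and split it into 3-carbon units, aldolase A stood highest. ALDOA (Entrez gene 226), which cleaves fructose bisphosphate, lay at 1.73 ± 0.74, 1.14 ± 0.69, 0.52 ± 0.61 and 0.05 ± 0.19 from 2 h to 14 days (SD, 2 features), or 3.32-fold of vehicle at 2 h and 1.04-fold at 14 days. Both of its features were past 2-fold at 2 h, at 2.25 and 1.21, and at 6 h they lay at 1.62 and 0.65. As a median, ALDOA was thus lower on each later array, and its excess over vehicle at 14 days was smaller than the SD between its features. Its brain paralogue ALDOC, read by 1 feature, followed the same order at a smaller size, with 0.99, 0.36, 0.05 and −0.12, just under 2-fold at 2 h.

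The hexokinases, which trap glucose in the cell, had features that differed widely. HK1 (Entrez gene 3098), the main hexokinase of brain, lay at 0.03, 0.28, 0.84 and 1.58 from 2 h to 14 days, with an SD over its 2 features of 2.93 at 14 days, the widest of the 19 genes with 2 or more features on that array. 1 feature lay at 3.65 at 14 days and 1.59 at 1 day and was listed at exactly 0 at 2 h and 6 h, and the other lay at −0.49 at 14 days. The 14 day value therefore rests on 1 of 2 features, which are assigned to different reference transcripts of the gene. HK2, the hexokinase linked to muscle and to growing cells, lay below vehicle on every array, at −0.73, −0.81, −0.57 and −0.44. Here too 1 feature held the difference, running between −1.65 at 2 h and −0.88 at 14 days, while the other stayed between −0.15 and 0.20.

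Phosphofructokinase, the main control point of the pathway, is made of liver, muscle and platelet type subunits, and none of these passed 2-fold. PFKM lay at 0.38, 0.85, 0.41 and 0.40, above vehicle at every time. PFKL lay at 0.52, 0.21, −0.23 and 0.32. PFKP lay at −0.40 at 2 h and 0.60 at 6 h, a difference of 1.00 that was 0.98 without centring. GPI, the isomerase before this step, was above vehicle throughout, at 0.52, 0.85, 0.40 and 0.66. PFKM, PFKP and GPI had 1 feature each. TPI1, which interconverts the products of aldolase, had a median of 0.31 at 2 h with the widest SD over features of the 19 genes on that array (1.68, 3 features). Its features lay at 1.99, −1.37 and 0.31, so no direction can be read for TPI1 at 2 h.

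In the later steps, which yield ATP, GAPDH had the highest value of the whole list. GAPDH (Entrez gene 2597), the dehydrogenase of glyceraldehyde phosphate and a common housekeeping standard, lay at 1.93, 0.78, 0.11 and 0.05 from 2 h to 14 days. At 2 h this was 3.82-fold of vehicle, above 99.3% of all genes on that array. It rests on 1 feature. The neighbouring enzyme PGK1, read by 4 features, showed no such difference, with −0.13 ± 1.02, −0.52 ± 1.14, −0.01 ± 0.28 and 0.02 ± 0.49 in the same order of times. 1 of its 4 features lay at −2.14 at 2 h and −2.51 at 6 h, and the other 3 lay between −0.16 and −0.02 at 2 h. PKM, the pyruvate kinase of brain, lay at 0.87 ± 0.54, 0.29 ± 0.40, 0.01 ± 0.68 and 0.41 ± 0.32 (3 features), with features at 0.92, 0.87 and −0.04 at 2 h.

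For mutase and enolase, the muscle type paralogue passed 2-fold at 2 h and the widely expressed one did not. PGAM2, the muscle phosphoglycerate mutase, lay at 1.20, 0.32, 0.13 and 0.66, and PGAM1, the form of most tissues, at −0.47 ± 0.77, 0.12, −0.21 and −0.25 (2 features). ENO3, the muscle enolase, lay at 1.28, 0.63, 0.70 and 0.40. ENO1, the enolase of most tissues, stayed between −0.17 and −0.09 on all 4 arrays (2 features). ENO2, the neuronal enolase, lay at 0.33 at 2 h and 0.13 at 6 h, and at −0.28 at 1 day and −0.65 at 14 days. PGAM2, ENO3 and ENO2 had 1 feature each. Cross-hybridisation between paralogues, and from the many pseudogenes of GAPDH, PGK1, ENO1 and LDHA, cannot be read from ratios and was not tested.

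**Figure D2:**
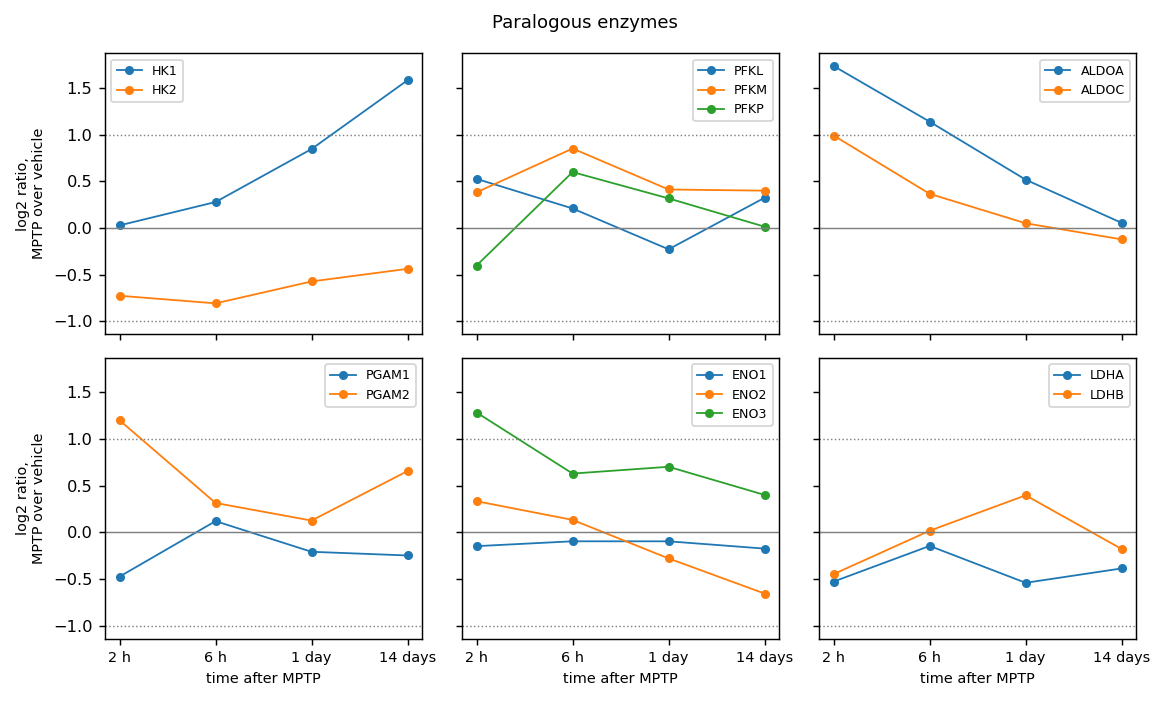
Lines give the log2 ratio of MPTP over vehicle at 4 times (1 animal each) for paralogous enzymes, with dotted lines at 2-fold. ALDOA and ALDOC are highest at 2 h and near 0 at 14 days. PGAM2 and ENO3 lie above PGAM1 and ENO1 at each time. As medians over features, HK1 lies near vehicle at 2 h and above it later, and HK2 lies below it at each time.

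The single features of 8 genes show how far these values depend on which spots were read. Among the 19 genes with 2 or more features, the median SD over features was 0.55, 0.23, 0.30 and 0.32 from 2 h to 14 days, beside 0.45, 0.34, 0.27 and 0.29 over all 7411 such genes. Features lay on both sides of vehicle in 12 of the 19 at 2 h (52.6% of all such genes), 7 at 6 h (50.6%), 9 at 1 day (55.9%) and 10 at 14 days (50.9%). ALDOA and CKB were the members with every feature at least 2-fold higher at 2 h (2 of 19, 10.5%, beside 0.499% of all such genes), and at 6 h CKB was the only one (5.26%, beside 0.243%). None of the 19 had every feature at least 2-fold lower at 2 h (1.34% of all such genes) or 6 h (0.526%).

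**Figure D3:**
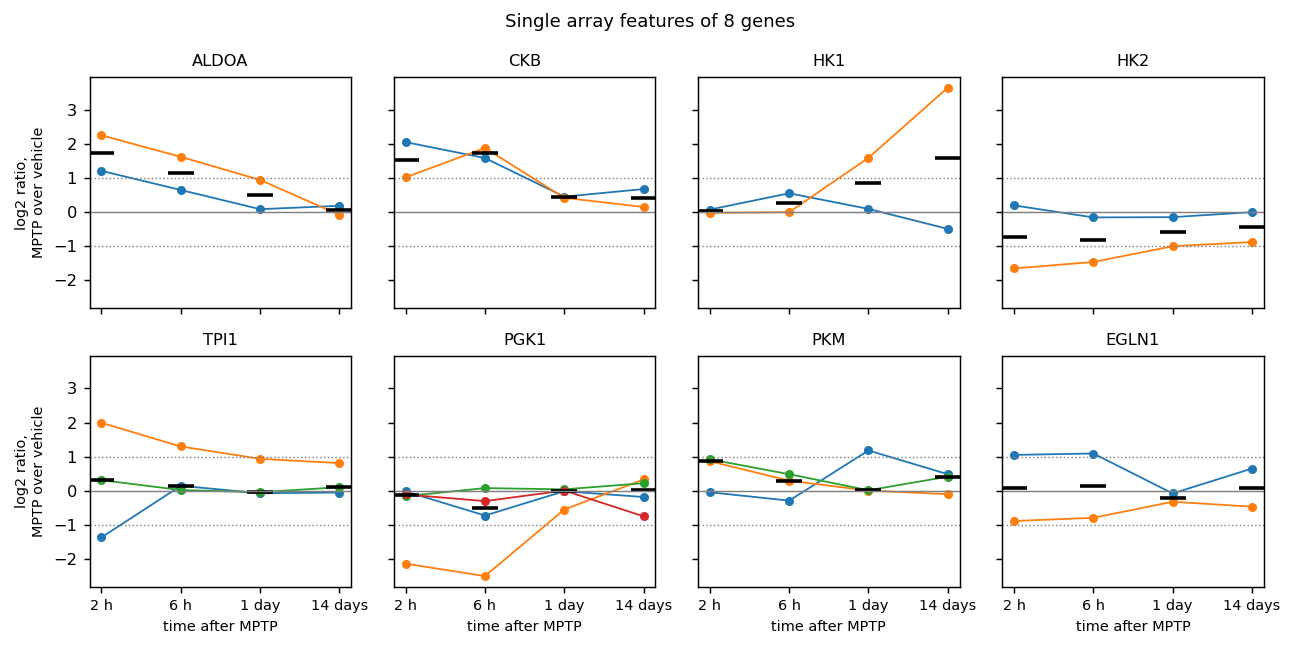
Lines give the log2 ratio of MPTP over vehicle of each array feature at 4 times (1 animal each), black bars the gene's median, and dotted lines 2-fold. The features of ALDOA and CKB lie past 2-fold together at 2 h, whereas at 14 days 1 feature of HK1 and at 2 h 1 feature of HK2 and of PGK1 stands apart from the rest, and at 2 h those of TPI1 and EGLN1 lie on both sides of vehicle.

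CKB (Entrez gene 1152), the brain creatine kinase, which buffers ATP with phosphocreatine and is not a glycolytic enzyme, was the only gene of the list past 2-fold on both early arrays with every feature. It lay at 1.54 ± 0.73, 1.74 ± 0.21, 0.44 ± 0.02 and 0.41 ± 0.37 from 2 h to 14 days (SD, 2 features). At 2 h its features lay at 2.06 and 1.02, the lower just past 2-fold, and at 6 h at 1.59 and 1.88. The 6 h value was 3.33-fold of vehicle, and the 1 day ratio stood at −1.30 relative to 6 h. Of the other genes of the creatine system, 6 of 7 were measured. The mitochondrial kinase CKMT1B lay at 1.26 ± 0.68 at 2 h (2 features) and 0.52, 0.41 and −0.06 later. GATM, which makes the precursor of creatine, was lower at 2 h (−1.63), and the muscle kinase CKM was higher at 1 day (1.45), from 1 feature each.

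As medians over features, the lactate dehydrogenase genes and PDK1 and PDK4 lay below vehicle at 2 h, all within 2-fold. LDHA, the lactate dehydrogenase subunit that favours lactate, lay at −0.53 ± 0.55, −0.14 ± 0.15, −0.54 ± 0.19 and −0.39 ± 0.27 (3 features). Its median was below vehicle on all 4 arrays. The features lay at 0.10, −0.53 and −0.99 at 2 h, and 1 lay at 0.06 at 14 days. LDHB, the subunit that favours pyruvate, lay at −0.45, 0.02, 0.40 and −0.18 (1 feature). PDK1 and PDK4 are kinases that shut pyruvate out of the mitochondria by blocking pyruvate dehydrogenase. They lay at −0.52 ± 1.04 and −0.58 ± 0.31 at 2 h and at 0.34 and 0.11 at 6 h (2 features each). The features of PDK1 lay at 0.21 and −1.26 at 2 h, so no direction can be read for PDK1 at that time. PFKFB3, which makes the activator of phosphofructokinase, lay at −0.01 ± 0.87, 0.03 ± 0.23, 0.07 ± 0.32 and −0.15 ± 0.37 (4 features), within its SD over features at each time, and at 2 h the features ran between −1.32 and 0.64.

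The glucose carriers lay highest at 14 days. SLC2A1, the carrier of the blood-brain barrier and of glia, lay at 0.14, 0.68, 0.03 and 0.72 (1 feature). SLC2A3, the neuronal carrier, lay at −0.24 ± 0.12, 0.14 ± 0.10, 0.45 ± 0.30 and 0.68 ± 0.61 (2 features), each array above the one before. Neither reached 2-fold. On the same arrays, 10 endothelial and pericyte markers had medians of 0.09, 0.30, 0.32 and 0.34, with 6, 7, 7 and 8 of the 10 above vehicle and values between −0.32 and 3.85 at 14 days. Their part in the carriers' values was not tested.

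Among the hypoxia regulators, EGLN3 was the member that passed 2-fold, at 6 h. EGLN3 (Entrez gene 112399), a prolyl hydroxylase that is itself induced by HIF, lay at −0.52, 1.23, −0.13 and −0.30 from 2 h to 14 days. Its 6 h value stood 1.75 above that at 2 h and 1.36 above that at 1 day, the vehicle sample being common to these ratios. It has 1 feature. EGLN1, the main oxygen sensor of the family, lay at 0.08, 0.15, −0.20 and 0.09, with features at 1.05 and −0.89 at 2 h and at 1.09 and −0.79 at 6 h, so that it gave no direction at the early times.

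HIF1A, the oxygen-regulated subunit of HIF-1, lay at −0.85, −0.17, 0.34 and 0.50 from 2 h to 14 days (1 feature). The 14 day ratio was 1.36 above that of 2 h, past 2-fold between these 2 MPTP animals, while neither was 2-fold from vehicle. EPAS1, or HIF-2 alpha, abundant in endothelium, lay at −0.61 ± 0.43, 0.11 ± 0.59, 0.08 ± 0.16 and 0.38 ± 0.02 (2 features). Its median was lowest at 2 h and highest at 14 days like HIF1A, but 1 feature was highest at 6 h (0.53), where the other lay at −0.31.

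Of the hypoxia targets none passed 2-fold. VEGFA, the growth factor of blood vessels, lay at 0.04 ± 0.39, 0.20 ± 0.10, 0.04 ± 0.17 and 0.11 ± 0.27 from 2 h to 14 days (4 features). At 2 h its features ran between −0.55 and 0.26, and their mean was −0.06. ADM, adrenomedullin, a peptide that widens vessels, lay at −0.46, 0.63, 0.25 and 0.22 (1 feature), and its ratio at 6 h was 1.10 above that at 2 h. NDRG1, a gene induced by hypoxia and by differentiation, lay at −0.19, −0.14, −0.01 and 0.14 (2 features), within its SD over features at every time.

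Set side by side, the listed glycolytic enzymes lay above the listed hypoxia genes at 2 h and close to them later. The 17 enzymes had a median of 0.38 at 2 h, with 12 above vehicle, and the 7 hypoxia regulators and targets a median of −0.46, with 2 above vehicle. Over all genes the median was 0.03, and 52.1% lay above vehicle. Wider lists did not show this gap at 2 h. The median was −0.01 for 24 other genes of glycolysis and pyruvate handling and −0.07 for 29 further hypoxia genes. The enzymes' median minus that of the hypoxia genes was 0.84, 0.15, 0.01 and −0.08 from 2 h to 14 days. At 6 h the medians were 0.29 for the enzymes and 0.15 for the hypoxia genes, at 1 day 0.05 and 0.04, and at 14 days 0.05 and 0.14, beside 0.03, 0.02 and 0.01 over all genes.

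The 2 h difference rests largely on genes with 1 feature. The 9 enzymes with 2 or more features had a median of 0.03 and the 4 such hypoxia genes a median of −0.08, a difference of 0.10. The 8 enzymes with 1 feature had a median of 0.75, and the 3 hypoxia genes with 1 feature a median of −0.52. Within the pathway, the 9 enzymes from hexokinase to triosephosphate isomerase had a median of 0.38 at 2 h and the 8 from GAPDH to pyruvate kinase 0.60, with 7 of 9 and 5 of 8 above vehicle. No test of these differences was possible, as genes are not replicates.

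**Figure D4:**
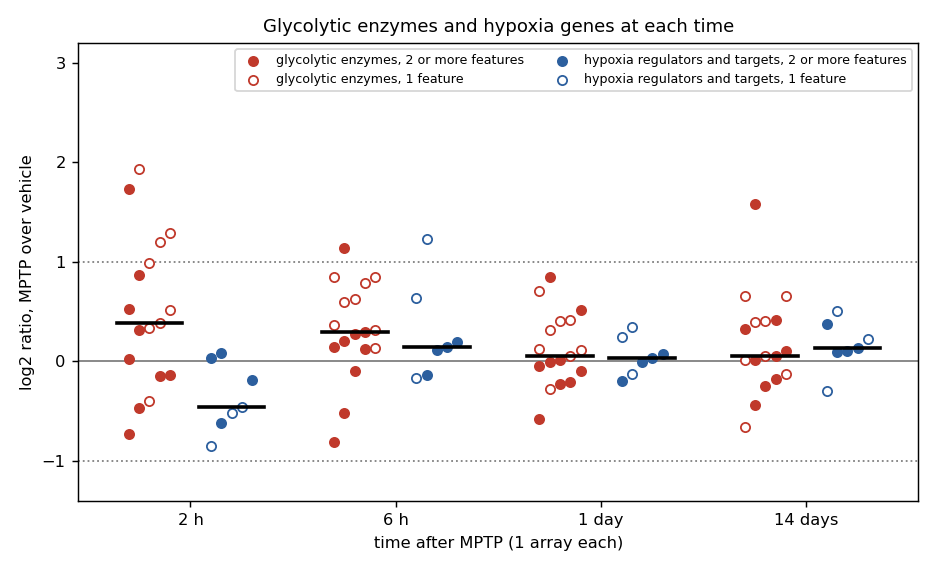
Points give the log2 ratio of MPTP over vehicle for 17 glycolytic enzymes (red) and 7 hypoxia regulators and targets (blue) at each time (1 animal each), filled for genes with 2 or more features and open for 1, with black bars at the medians and dotted lines at 2-fold. The enzymes spread highest at 2 h, where most of the top points are open, and at 1 day and 14 days the medians of the lists nearly meet.

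Some markers of other cells also stood away from vehicle at 2 h, on the array where the enzymes were highest. Erythrocyte markers, from cells that live by glycolysis, were above vehicle in 7 of 7 genes, with values between 0.39 and 2.66 and a median of 0.74, and their medians on the later arrays were 0.33, 0.52 and 0.97. Astrocyte markers were below vehicle in 7 of 8 genes at 2 h, with values between −1.60 and 0.18 and a median of −0.48, and their medians were −0.29, −0.02 and 0.08 later. Of the globin genes, HBA1 lay at 2.66, 1.31, 0.92 and 1.12 from 2 h to 14 days (1 feature). HBA2 lay at 1.19 ± 2.01, 1.00, 0.65 and 0.66 (2 features). As medians, both HBA1 and HBA2 were highest at 2 h, but the HBA2 value there was smaller than its SD over features. HBB (0.49, −0.37, 0.29 and 0.97) and HBD (0.72, −0.43, 0.88 and 0.98) were instead highest at 14 days. The part of either cell type in the enzymes' values was not tested. The genes beside the enzymes in the marmoset gene order, 10 to 30 places away, also lay on the higher side at 2 h for ALDOA (regional median 0.28) and GAPDH (0.29), but not for PGAM2 (−0.02) or ENO3 (−0.02).

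In differences between MPTP animals the vehicle sample drops out, as far as its labelled RNA was the same on each array. At 6 h, PFKP, EGLN3 and ADM were at least 2-fold above their ratios at 2 h (9.38%, beside 4.90% of all genes), and GAPDH was 2-fold below, at −1.15 (3.12%, beside 3.98%). Each of these 4 has 1 feature and no exact zero. The mean over features, exact zeros not measured and averaging per accession therefore could not change them. The setting with 2 or more features left them out. Under the alternatives that could change it, EGLN3 stayed past 2-fold (1.73 without centring, 1.57 with the arrays scaled to 1 spread, 1.80 with a regional median subtracted). PFKP lay under 2-fold without centring (0.98), and ADM (0.99) and GAPDH (−0.97) after subtraction of a regional median. PFKP, ADM and GAPDH also did so with the arrays scaled to 1 spread (0.87, 0.95 and −0.60). At 1 day, EGLN3 and CKB were 2-fold below their 6 h ratios (6.25%, beside 2.69% of all genes), and none was above (3.59% of all genes). Between 1 day and 14 days no gene of the list differed by 2-fold (2.26% of all genes higher and 2.53% lower). Across the whole course, GAPDH at 14 days stood at −1.88 relative to 2 h, ALDOA at −1.68, CKB at −1.12 and ALDOC at −1.11 (12.5%, beside 4.33% of all genes), while HK1 stood at 1.55 and HIF1A at 1.36 (6.25%, beside 4.85%). The HK1 difference rests on 1 of its 2 features, an exact zero at 2 h and 3.65 at 14 days. The other feature of HK1 lay at 0.07 at 2 h and −0.49 at 14 days. With the arrays scaled to 1 spread, CKB (−0.58) and ALDOC (−0.85) lay under 2-fold, as did ALDOC (−0.96) after subtraction of a regional median.

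Ordered by time, 4 genes had a lower ratio on each later array, namely ALDOA, ALDOC, GAPDH and ENO2 (12.5%, beside 5.93% of all genes). Another 4, HK1, SLC2A3, HIF1A and NDRG1, had a higher ratio on each later array (12.5%, beside 4.84% of all genes). These orders are those of medians over features. Against the rising order, 1 feature of HK1 lay at 0.10 at 1 day and −0.49 at 14 days, and 1 of NDRG1 at −0.23 and −0.28. The other feature of HK1 was listed at exactly 0 at both 2 h and 6 h. Against the falling order, 1 feature of ALDOA lay at 0.09 at 1 day and 0.19 at 14 days. Above vehicle lay 16 of the 32 genes at 2 h (52.1% of all genes), 26 at 6 h (53.2%), 20 at 1 day (52.3%) and 21 at 14 days (51.3%). On all 4 arrays, 11 of 32 genes were above vehicle (34.4%, beside 23.5% of all genes): HK1, GPI, PFKM, ALDOA, GAPDH, PGAM2, ENO3, PKM, SLC2A1, VEGFA and CKB. With the mean over features, VEGFA left this group and TPI1 joined it, so the count stayed 11. After subtraction of a regional median, ALDOA, GAPDH, PKM and SLC2A1 left it and PFKFB3 joined it, which gave 8. HK2, ENO1 and LDHA were below vehicle on all 4 (9.38%, beside 18.5%). Since the 4 ratios share the vehicle sample, 1 low or high vehicle value puts a gene on the same side on every array.

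Other genes of these pathways were read from wider lists. Of 24 measured genes of pyruvate handling and the remaining steps of glycolysis, none was 2-fold higher on any array, and the medians were −0.01, 0.06, 0.05 and 0.07. SLC16A7, a carrier of lactate and pyruvate in neurons, was lower at 6 h (−1.26 ± 1.35, 2 features), and PKLR, the pyruvate kinase of liver and red cells, at 1 day (−1.49, 1 feature). Of 29 further hypoxia genes, 1 was 2-fold higher and 3 lower at 2 h (5.47% and 7.22% of all genes), with a median of −0.07. The lower ones were BNIP3L, a mitophagy receptor (−2.03 ± 0.50, 2 features), ARNT2, a neuronal partner of HIF (−1.80), and MXI1, an antagonist of MYC (−1.26). ANGPTL4, a HIF target that inhibits lipoprotein lipase, was higher, at 1.07 at 2 h and 1.37 at 14 days. BNIP3L was also lower at 6 h (−1.34 ± 0.73), where EGLN2, the third HIF prolyl hydroxylase, was higher (1.29). PLOD2, which modifies collagen, was higher at 1 day (1.65). Of 14 genes of the pentose phosphate pathway and of glycogen, PYGM, the muscle glycogen phosphorylase, which astrocytes also express, was the one past 2-fold on any array, with 2.70, 1.97, 0.12 and 1.78 from 2 h to 14 days, from 1 feature.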

How the data were processed

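Laser-captured nigral RNA of 4 MPTP animals and 1 vehicle animal was measured on 4 two-colour arrays of human probes. The deposited table gave a single number for each feature on each array, taken to be a log10 ratio (Cy5 channel over Cy3) because column medians were near 0 and no value passed 2 in size. Scale and direction are inferred, and how the authors read, corrected and normalized the images is not stated in the labels. The table held no intensities, so dim features could not be filtered.

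Values were converted to log2, centred on each array's median and reduced to the median over features with 1 symbol in the platform annotation (29033 of 43931 features, and 97 had several symbols and 14801 none). A gene counted as higher or lower at 2-fold. All members could be named, and of the related lists up to 4 genes per array past 2-fold. Of the cell type markers, up to the first 2 of each list could be named, whatever their values. The globin genes HBB and HBD were named beyond this rule. The members and lists were chosen with earlier results of these data known. Marmoset gene order came from RefSeq (assembly calJac240_pri, 31 of 32 members matched). Python 3.11.15, numpy 2.4.6, pandas 2.3.3 and matplotlib 3.10.9 were used, and the code was tested on simulated data. Alternatives were no centring, the mean over features, arrays scaled to 1 median absolute deviation, exact zeros not measured, genes with 2 or more features, a 3-fold threshold, and every feature past 2-fold. Subtraction of a regional median, averaging per accession and leaving out each array were added after seeing the data.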

Additional observations from a re-analysis of the deposited data

Results flagged for a closer look

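EGLN3 lay on opposite sides of vehicle at neighbouring times and passed 2-fold on 1 of them. Its log2 ratio was −0.52 at 2 h, 1.23 at 6 h and −0.13 at 1 day. These differences were not tested, since each time had 1 animal and EGLN3 has 1 feature.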

How the results depend on the processing

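No paired analysis was possible because each group holds 1 sample. A list median was taken as changed when it differed by 0.1 or more, and a count when it differed by over 1.5 times. Without centring, with the mean over features, with exact zeros not measured and with features averaged per accession, no list median or count changed by that much. The 3 genes higher at 6 h against 2 h were 2 without centring, PFKP lying just under 2-fold. With arrays scaled to 1 spread, 2 h gave 3 genes higher, medians of 0.27 (enzymes) and −0.33 (hypoxia) and a difference of 0.60. HK1 was then the 1 gene higher at 1 day, and 6 h against 2 h gave 1 gene higher and 0 lower. With genes of 2 or more features, 2 h gave 2 genes higher, medians of 0.027 (enzymes) and −0.076 (hypoxia) and a difference of 0.10. At 6 h the enzyme median was then 0.14 and the difference 0.015, 5 genes lay above vehicle on every array, and the counts were 0 and 0 for 6 h against 2 h and 1 lower for 1 day against 6 h. At 3-fold, and with every feature past 2-fold, the higher genes numbered 2 at 2 h, 1 at 6 h and 0 at 14 days. With a regional median subtracted, the hypoxia median was −0.30 at 2 h and 0.24 at 14 days, the 2 h difference 0.68, and no gene (0) was lower at 6 h against 2 h. ALDOA at 6 h was then 0.95, under 2-fold. With 1 array left out, genes above vehicle on every remaining array numbered 11 to 15, and genes below numbered 3 to 6, with 6 without the 6 h array and 5 without the 14 day array. Beyond fewer genes or arrays counted, the cause of these changes was not tested. No gene past 2-fold changed sign under any alternative run. These genes have 1 or 2 features, for which mean and median are the same. Scaling keeps signs, and the centring and regional shifts were far smaller than 2-fold. The alternatives could therefore not turn such a sign, and its constancy is no measure of stability.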
